A study of Rattus norvegicus with 3 samples.

Results

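Glutamate transporters and glutamine synthetase were followed in the rat vestibular nuclei, the brainstem cell groups that take in balance signals from the inner ear. The group holds 8 genes: the vesicular transporters Slc17a6, Slc17a7 and Slc17a8, the plasma membrane transporters Slc1a1, Slc1a2, Slc1a3 and Slc1a6, and the glutamine synthetase gene Glul. Every probe whose RefSeq accession belongs to a member was taken, whatever its signal, which gave 9 probes for the 8 genes out of 8899 genes that could be named on the array. Slc1a3 had 2 probes and the other 7 genes had 1 each.

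The rats were adult Sprague-Dawley males weighing between 200 and 250 g, and the study follows vestibular compensation, in which balance returns after 1 labyrinth is lost. The sham group is a sham-operated control by its label, although the protocol text calls these rats normal, and no source used here says from which side their nuclei came. The day 1 and day 7 groups were the vestibular nuclei of the operated side, 1 and 7 days after labyrinthectomy of the left ear. Each group had 1 array and the labels name 3 rats for each, since a single nucleus gave too little RNA, so an array appears to carry pooled RNA. There is therefore no error from animals, no test of a condition and no p-value.

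Glutamate is the main fast excitatory transmitter of the brain and of the vestibular nerve. Neurons load it into synaptic vesicles through vesicular transporters, and after release it is cleared from the synapse by plasma membrane transporters, mostly those of astrocytes. Astrocytes turn the captured glutamate into glutamine with glutamine synthetase and return it to neurons, which convert it back to glutamate. This loop is known as the glutamate-glutamine cycle.

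Values are log2 of the processed signal minus the log2 of the array's own 75th percentile, so 0 is the 75th percentile of the array's spots and a difference of 1.00 is 2-fold. Probes differ in how well they bind, so levels are compared between arrays for 1 probe and never between probes. A gene counted as measured in a comparison when neither array had its probe saturated or failed to put it well above background. The slide was shared, with sham at position 4, day 1 at position 3 and day 7 at position 2, so position and group cannot be told apart. Spots well above background made up 81.3% of the sham array, 77.3% of day 1 and 76.9% of day 7. As a gauge of error without replicates, the log2 fold at day 1 against sham was compared between the 2 brightest probes of each of 1139 genes, and the median difference was 0.34. The same median was 0.41 over 1121 genes for day 7 against sham, and for day 7 against day 1 it was 0.37 over 1082 genes.

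None of the 7 members measured in each comparison differed by 2-fold or more between any pair of arrays. For day 1 against sham that is 0 of 7 members beside a background of 12.6% of 6292 measured genes past 2-fold. For day 7 against sham it is 0 of 7 beside 16.9% of 6261 genes, and for day 7 against day 1 it is 0 of 7 beside 11.9% of 6142 genes. Those backgrounds amount to 0.884, 1.18 and 0.832 genes among 7, so a count of 0 does not set the members apart from other genes. The 5 members with brighter probes (Slc17a6, Slc1a1, Slc1a2, Slc1a3 and Glul) also gave 0 of 5 in each comparison, where brighter genes as a whole gave 8.72%, 11.5% and 9.57% in the same order. The eighth gene, Slc17a7, was well above background in sham alone.

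The largest differences among the members were a lower Glul at day 7 and a higher Slc1a6 at day 1. At a threshold of 1.5-fold 1 of 7 members passed in each comparison, namely Slc1a6 for day 1 against sham, and Glul for day 7 against either other array. The backgrounds at 1.5-fold were 30.0%, 36.8% and 28.2% of genes. These counts were below the background share, but with 7 members they do not set the members apart from other genes. Slc1a2 lay just inside that threshold at day 7 against day 1, at 1.49-fold.

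**Figure D1:**
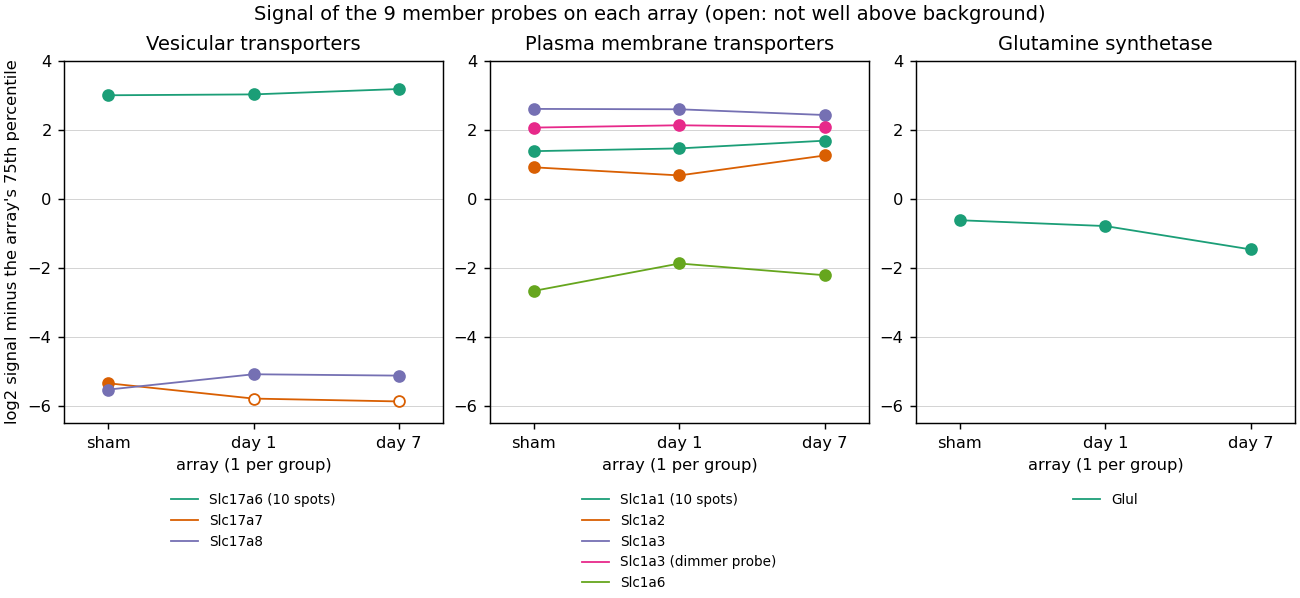
Signal of the 9 member probes on the sham, day 1 and day 7 arrays, as log2 minus the array's 75th percentile (vertical axis), with filled points well above background and open points not; lines only join the same probe. Slc17a6 and both Slc1a3 probes stay nearly level, Glul is lowest at day 7 and Slc1a6 is highest at day 1. Slc17a7 is open on both arrays after labyrinthectomy.

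Among the vesicular transporters, Slc17a6 gave a bright and nearly equal signal on all 3 arrays. Slc17a6 encodes VGLUT2, the vesicular transporter typical of excitatory neurons of the brainstem. Its probe was printed on 10 spots, and the sham, day 1 and day 7 arrays had mean levels of 3.01, 3.03 and 3.19, with a spot SD of 0.07, 0.05 and 0.06. The difference was 0.03 at day 1 against sham, with an error of 0.03 from the spots alone, and 0.18 at day 7 against sham, also with an error of 0.03. Within an array the 10 spots ran from 2.91 to 3.14 in sham, from 2.93 to 3.11 at day 1 and from 3.0998 to 3.29 at day 7. The day 7 spots sat higher as a set, yet the lowest of them overlapped the highest of both other arrays. The small difference at day 1 turned negative under scaling by the array median (-0.08) and in the authors' unscaled values (-0.09), so it has no settled direction.

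Slc17a8 and Slc17a7 gave dim signals close to the detection limit of the arrays. Slc17a8 encodes VGLUT3, found in scattered cells that often use another transmitter as well. Its signal was 123 intensity units in sham, 154 at day 1 and 163 at day 7, or -5.53, -5.09 and -5.13 on the log2 scale. It was higher by 0.45 at day 1 and by 0.41 at day 7 than in sham, and the days differed by -0.04. The scanner software's own error for these differences was 0.34, 0.36 and 0.38, so the differences from sham are little larger than their error and that between the days is far within it. The latter was above 0 in the authors' unscaled values (0.08). Under other background and scaling choices the difference from sham went down to 0.18 at day 1 and to 0.07 at day 7.

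Slc17a7 encodes VGLUT1, the vesicular transporter of cortical neurons, of cerebellar granule cells and of part of the primary sensory fibres. Its signal was 139.9 units in sham, where it was well above background, 94.6 at day 1 and 96.7 at day 7, where it was not. The lowest signal well above background was 66.9 units in sham, 109 at day 1 and 122 at day 7, so a signal between 66.9 and 109 units could be measured in sham alone. The sham signal was at least 1.18-fold higher than at day 1 and at least 1.15-fold higher than at day 7. These bounds set the sham value against the lowest signal well above background on the other array. The scanner error of the differences was 0.42 and 0.45 on the log2 scale, more than either bound, so the bounds are not firm. Between day 1 and day 7 no fold is given, since neither value was above background.

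The neuronal plasma membrane transporter Slc1a1 was somewhat higher at day 7 than on the other arrays. Slc1a1 encodes EAAC1 (EAAT3), which sits on neurons and also carries cysteine into them. Its probe lay on 10 spots, of which 10, 9 and 9 were used in sham, day 1 and day 7 after outlier spots were left out. In that order the mean level was 1.39, 1.47 and 1.69, with a spot SD of 0.05, 0.06 and 0.05. Day 7 was above sham by 0.30 (1.23-fold, spot error 0.02) and above day 1 by 0.22 (spot error 0.03). The spots ran from 1.31 to 1.501 in sham, from 1.38 to 1.55 at day 1 and from 1.61 to 1.77 at day 7. The day 7 spots lay wholly above those of the other arrays, also when outlier spots were counted. These spots show how well 1 hybridised sample was read and carry no error between rats. The difference between day 1 and sham, 0.08, became -0.02 under median scaling and -0.04 in the unscaled values.

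**Figure D2:**
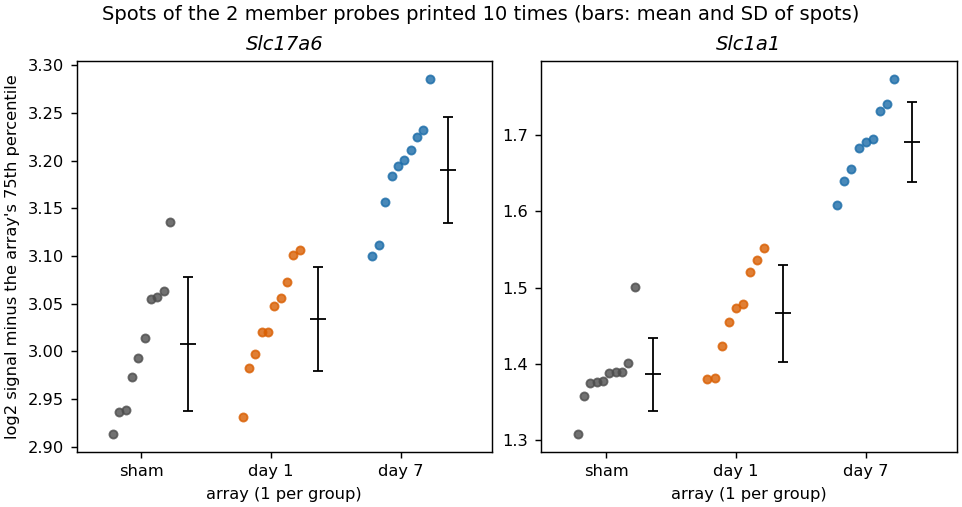
Single spots of the Slc17a6 and Slc1a1 probes on each array, sorted by value within an array, with the mean and SD of the spots beside them; the vertical axis is log2 signal minus the array's 75th percentile and does not start at 0. The Slc1a1 spots of day 7 lie between 1.61 and 1.77, above every used spot of sham and day 1, while the Slc17a6 spots of the 3 arrays overlap.

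Slc1a1 and Slc17a6, which share this precise design, differed little from each other in how they moved. The log2 fold of Slc1a1 exceeded that of Slc17a6 by 0.12 at day 7 against sham, with an error of 0.04 from spots. Over the alternatives this difference ranged from 0.08 to 0.12. It is below the median of 0.41 by which probes of 1 gene differed. This pair was chosen after the values were seen, as were the pairs below.

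The astrocyte transporters Slc1a2 and Slc1a3 stayed close to sham. Slc1a2 encodes GLT-1 (EAAT2), the transporter that takes up most synaptic glutamate in the forebrain, and Slc1a3 encodes GLAST (EAAT1), strong in cerebellar and brainstem astrocytes. Slc1a2 was at 0.92 in sham, 0.68 at day 1 and 1.26 at day 7, lowest at day 1 and highest at day 7. Against sham it was at -0.24 at day 1 and at 0.34 at day 7, each with a scanner error of 0.20. Day 7 was above day 1 by 0.58, or 1.49-fold. The directions of these 3 values stayed the same under all 11 alternatives, with ranges of -0.42 to -0.21, 0.17 to 0.41 and 0.55 to 0.69. The sizes of the differences from sham are within the median difference between probes of a gene, and that between the days is above it.

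Slc1a3 was measured by 2 probes, which gave nearly the same picture. The brighter probe was at 2.61 in sham, 2.60 at day 1 and 2.43 at day 7. The dimmer probe was at 2.07, 2.14 and 2.08. Against sham the brighter probe differed by -0.01 at day 1 and -0.18 at day 7, and the dimmer probe by 0.07 and 0.01. The probes thus differed from each other by 0.08 at day 1 and 0.19 at day 7, less than the medians of 0.34 and 0.41 for probes of a gene, and no direction is settled for Slc1a3 at day 1, where 3 of 11 alternatives gave the opposite sign.

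Slc1a6 was higher after labyrinthectomy than in sham, more so at day 1. Slc1a6 encodes EAAT4, a transporter best known from cerebellar Purkinje cells, whose axons reach the vestibular nuclei. Its signal was 896 units in sham, 1432 at day 1 and 1224 at day 7, or -2.67, -1.87 and -2.21 on the log2 scale. It was above sham by 0.80 (1.74-fold) at day 1 and by 0.45 (1.37-fold) at day 7, with a scanner error of 0.21 in each case. Day 7 was at -0.34 against day 1. Both values against sham were above 0 under all 10 alternatives that kept the gene, from 0.67 to 0.80 at day 1 and from 0.33 to 0.50 at day 7. They rest on 1 spot per array.

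Purkinje cell markers did not follow the same order. Of 7 listed markers 5 had a named probe, and their summed level (signal over the array's 75th percentile) went from 9.81 in sham to 10.1 at day 1 and 14.5 at day 7. Of 4 measured against sham, 2 were above 0 at day 1 with a median of 0.13, and 4 at day 7 with a median of 0.48. None passed 2-fold at either time, beside 12.6% and 16.9% of all genes. Calb1, a calcium-binding protein of Purkinje cells and of other neurons, was at 0.31 and 0.75 by its brightest probe. Its other probes well above background on all arrays gave 0.29 and -0.07, and 0.56 and 0.12 on 10 spots. Itpr1, a calcium release channel, was at -0.09 and 0.68, and by its dimmer probe on 10 spots at 0.54 and 1.76. Car8, a Purkinje-enriched protein, was well above background in sham alone, at 92.2 units. That is below the lowest signal well above background at day 1 (109) and day 7 (122), so no bound is given. Of the cerebellar granule cell markers, which report stray cerebellar tissue, Gabra6 was not well above background on any array, and Zic1 was at -2.81 in sham and -1.65 at day 1 and not well above background at day 7, where sham was at least 6.64-fold higher. Neurod1 was well above background in sham alone, at least 1.81-fold higher than at day 1. The part of such cells in the Slc1a6 values was not tested.

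Glul showed the largest difference of the members, and it was lower at day 7. The gene encodes glutamine synthetase, which joins ammonia to glutamate, mainly in astrocytes and also in oligodendrocytes. Its signal was 3710.4 units in sham, 3039.6 at day 1 and 2056 at day 7, or -0.62, -0.79 and -1.46 on the log2 scale. Sham was highest and day 7 lowest. Compared with sham, day 1 was at -0.17 and day 7 at -0.85 (1.80-fold lower), and compared with day 1, day 7 was at -0.68 (1.60-fold lower). The scanner error was 0.20, 0.21 and 0.21. The value at day 7 against sham ranged from -0.97 to -0.79 over 11 alternatives, so it kept its sign and stayed under 2-fold in each. It too rests on 1 spot per array, and the 90th percentile of the difference between probes of 1 gene was 1.41.

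Glul and the astrocyte uptake gene Slc1a2 parted at day 7. Their log2 folds against sham were -0.85 and 0.34, a gap of 1.19, and against day 1 they were -0.68 and 0.58, a gap of 1.26. At day 1 against sham the gap was -0.07. A single scaling factor per array leaves the gap unchanged. Against sham at day 7 it was 1.30 under quantile normalization, 1.26 under cyclic loess and 0.96 with the normexp background correction. It is inside the 90th percentile of 1.41 for probes of the same gene at day 7 against sham.

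Astrocyte markers differed among themselves, while the oligodendrocyte markers were lower at day 7. In bulk tissue, fewer cells of a type and less RNA per cell cannot be told apart. The 9 astrocyte markers with a probe summed to 25.6 in sham, 26.6 at day 1 and 24.3 at day 7. Of 7 measured at day 7 against sham, 2 were at least 2-fold higher, the water channel Aqp4 (1.25 on 10 spots) and S100b (1.89 on 10 spots), which is 28.6% beside 16.9% of all genes, and the median was -0.11. None of the 7 was 2-fold lower, but the potassium channel Kcnj10, not well above background at day 7, was at least 2.11-fold higher in sham. Gfap, the astrocyte filament, was at -0.26, Aldh1l1, a folate enzyme of astrocytes, at 0.70 and the metabolic enzyme Aldoc at -0.41. The 7 oligodendrocyte markers summed to 24.8, 21.2 and 16.9. At day 7 all 7 were below sham by their brightest probes, with a median of -0.33 (from -0.46 to -0.27 over the alternatives). Of these, Mbp (-1.29) and Aspa (-1.20) were past 2-fold, which is 28.6% beside 16.9% of all genes. The 8 general neuronal markers summed to 32.5, 31.5 and 22.8. At day 7 against sham 3 of 7 measured were past 2-fold lower, 42.9% beside 16.9% of all genes past 2-fold in either direction. These were the neurofilaments Nefl (-1.61), Nefm (-1.17) and Nefh (-2.30). The synaptic protein Snap25 was at 0.47 on 10 spots, Syt1 at -0.13, Map2 at -0.26 and Tubb3 at -0.50. At day 1 against sham, 2 of 8 astrocyte markers were at least 2-fold higher, S100b (3.19) and Kcnj10 (1.71). No measured oligodendrocyte or neuronal marker was past 2-fold in that comparison. The share of all genes past 2-fold in either direction at day 1 against sham was 12.6%. The sums of astrocyte and neuronal markers each hold 1 saturated probe (Gja1 and Eno2). The part of these cell types in the Glul and Slc1a2 values was not tested.

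The neuronal, astrocyte and oligodendrocyte markers with a probe were well above background on all arrays except Kcnj10 at day 7, but such markers do not tell hindbrain from other brain tissue. Of the hindbrain position list only Hoxa2 and Egr2 had a named probe. Hoxa2 was at 0.57 in sham and 0.58 at day 1 and was not well above background at day 7, where sham was at least 69.5-fold higher. The Hoxa2 values rest on 1 probe with 1 spot per array, and the tissue make-up of the arrays was not tested. Egr2, also an activity gene in adult neurons, was 2.86 above sham at day 7 and not well above background at day 1. Choroid plexus markers summed to 0.71, 0.57 and 1.26, with Kl not well above background on any array. Against sham, Kcnj13 was at 1.55 and Ttr at -1.20 at day 1, and Sostdc1 was at 1.86 and Folr1 at 1.72 at day 7. The microglia marker Aif1 was at -1.08 at day 1, and the sum of the 5 microglia markers with a value on all arrays was 2.46, 1.51 and 3.48. Cx3cr1, another microglia marker, went the other way, being not well above background in sham and at least 3.78-fold higher at day 1 and 3.05-fold at day 7. Among markers measured on both arrays of the pair, those at least 2-fold higher at day 7 than at day 1 were Aqp4 (1.20), Sostdc1 (1.76), Ttr (1.11), Csf1r (1.16) and C1qa (1.39), and those at least 2-fold lower were S100b (-1.30), Tubb3 (-1.18), Nefl (-1.33) and Nefh (-1.62). By bounds for markers measured on 1 of these arrays, day 1 was at least 69.9-fold higher for Hoxa2, 14.8-fold for Zic1, 6.88-fold for Kcnj10 and 2.05-fold for Kcnj13, and day 7 was at least 16.1-fold higher for Egr2.

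**Figure D3:**
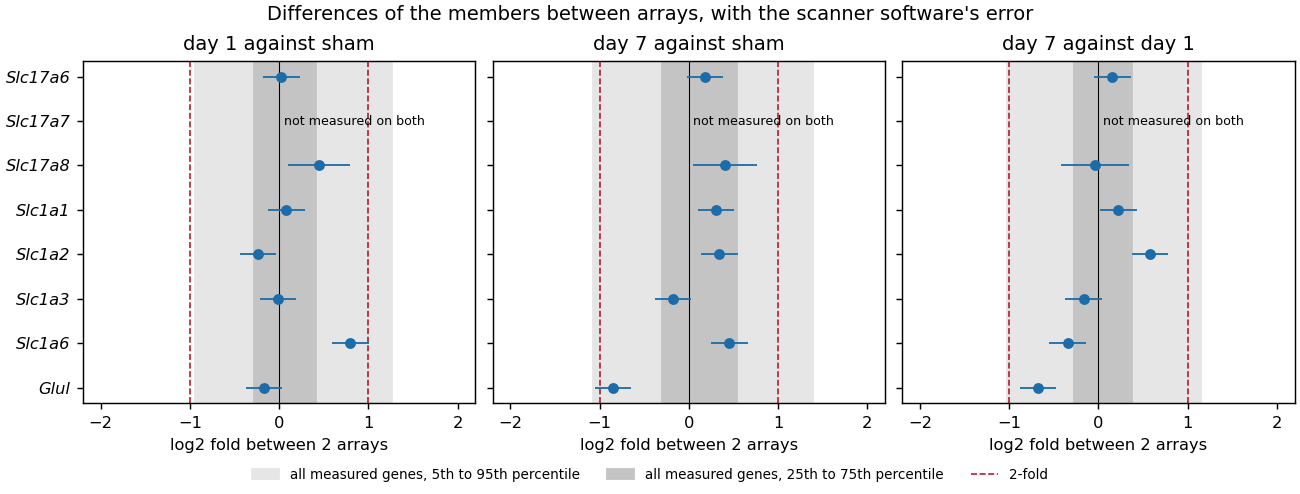
Log2 fold of each member between 2 arrays (horizontal axis), by its brightest probe, for the 3 comparisons, with bars for the scanner software's own error, grey bands for the spread of all measured genes and dashed lines at 2-fold. Every measured member lies between the dashed lines, with Glul at -0.85 for day 7 against sham and Slc1a6 at 0.80 for day 1 against sham farthest from 0.

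Seen as a set, the measured members had a median log2 fold of 0.03 at day 1 against sham, where all measured genes had 0.00. For day 7 against sham the medians were 0.30 and 0.05, and for day 7 against day 1 they were -0.04 and 0.04. Of the 7 members, 4 were above 0 in the first of these comparisons, 5 in the second and 3 in the third. The median absolute log2 fold of the members was 0.17, 0.34 and 0.22 in that order, beside 0.34, 0.41 and 0.33 for all measured genes. The day 1 and day 7 values against sham share the sham array, so they are not independent of each other.

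The other genes of the glutamate-glutamine cycle were read from a list of 32, of which 25 had a named probe. At day 1 against sham, 4 of 23 measured were at least 2-fold higher, 1 was at least that much lower and the other 18 lay between, and the median was 0.00. That is 21.7% of the list beside 12.6% of all genes. At day 7 against sham, 1 of 22 was higher and 2 were lower, 13.6% beside 16.9%, with a median of -0.17. At day 7 against day 1, 2 of 21 were lower and none was higher, 9.52% beside 11.9%, with a median of -0.12. Among brighter genes it was 2 of 14 at day 1 against sham, beside 8.72% of all brighter genes. The list was chosen with earlier results in view.

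The 2-fold differences were spread over different steps of the cycle. Slc3a2, the heavy chain that carries the cystine-glutamate exchanger and other amino acid exchangers to the membrane, was at 1.01 in sham, -1.13 at day 1 and -1.08 at day 7. Against sham it was at -2.14 and -2.09, with a difference of 0.05 between the days, on 1 bright spot per array. Its light chain partner Slc7a11 had no named probe.

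The neutral amino acid carrier Slc1a4, a relative of the glutamate transporters, was at -6.00 in sham and -3.46 at day 1, a difference of 2.54 between dim signals. At day 7 it was not well above background, at 117 units beside 89.0 in sham. The lowest signal well above background was 122 units at day 7 and 66.9 in sham. Slc1a5, the related glutamine carrier, was at -0.83 at day 1 and -1.02 at day 7 against sham. The glutamine transporter Slc38a5 was at -5.09 in sham and -3.49 at day 7, higher by 1.60, and not well above background at day 1.

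Gpt2, the mitochondrial alanine aminotransferase, was higher than sham by 1.86 at day 1 and by 0.99 with its other probe, and at day 7 it was at 0.48 and -0.51 by the 2 probes. The mitochondrial glutamate carrier Slc25a22 was at -2.12 in sham, -0.91 at day 1 and -2.30 at day 7, thus 1.21 above sham at day 1 and -0.18 at day 7. Arhgef11, reported to bind EAAT4, was higher by 1.56 at day 1 at a dim level and was not well above background at day 7.

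The 9 measured enzymes that make and use glutamate were within 2-fold of sham, except Gpt2 at day 1. Gfpt1, the enzyme that starts hexosamine synthesis from glutamine, was well above background in sham alone, at least 1.77-fold higher than at day 1 and 1.72-fold higher than at day 7. Of 9 measured at day 7, 7 were below sham, with a median of -0.28 that ranged from -0.41 to -0.21 over the alternatives. At day 1 the median was -0.03, and it was 0.04 with the normexp background correction. Gls2, a glutaminase, was at -0.72 at day 7. Glud1, glutamate dehydrogenase, was at -0.17, and by its other probes at -0.20 and -0.32. The glutamine transporters Slc38a1 and Slc38a2, used by neurons to take up glutamine, were at -0.75 and -0.83 at day 7 against sham, with -1.41 for the dimmer probe of Slc38a2. At day 1 against sham Slc38a1 was at -0.73, while Slc38a2 was at -0.08, and at 0.09 by its dimmer probe. Slc38a6 was higher at day 7 by its 3 probes (0.53, 1.67 and 0.63) and Slc38a7 was at 0.28. Of the 6 glutamine transporters, 3 were above sham at day 7 and the median was 0.14. Slc38a3, which releases glutamine from astrocytes, was at 0.00 from a dim probe.

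**Figure D4:**
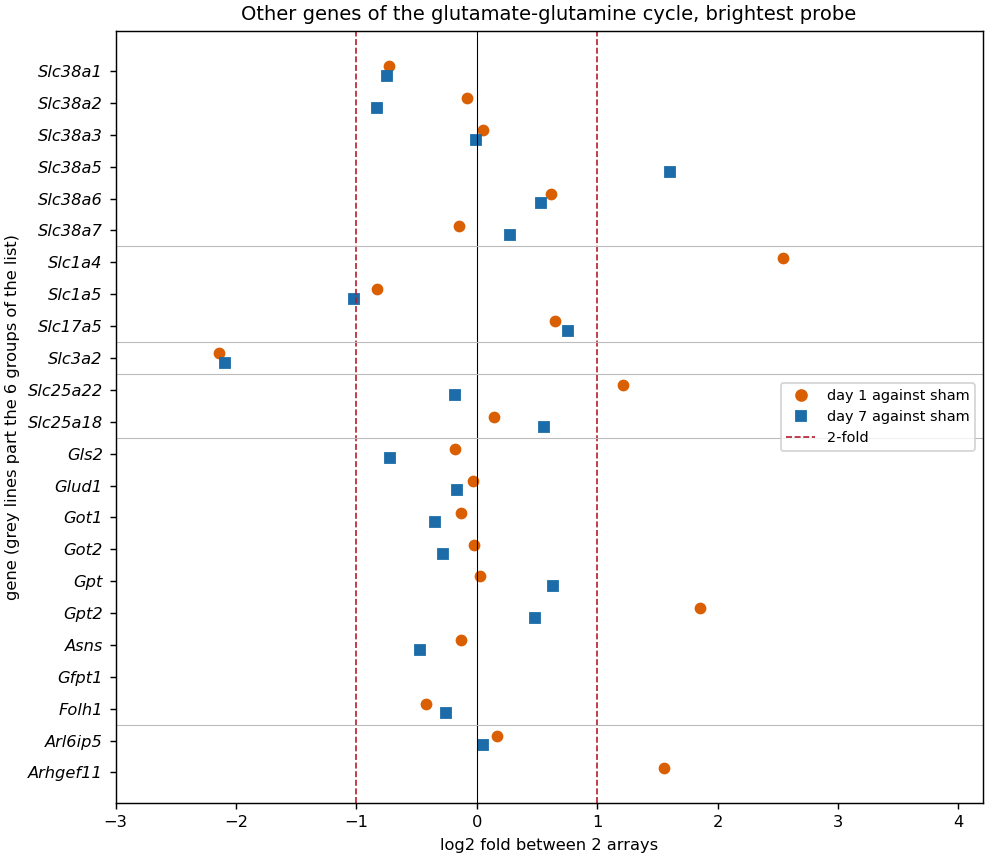
Log2 fold of other glutamate-glutamine cycle genes (23 of the 25 with a probe are listed) at day 1 (circles) and day 7 (squares) against sham, by the brightest probe of each gene, with dashed lines at 2-fold; a gene without a symbol was not measured on both arrays. Slc3a2 lies near -2.1 at both times, Slc1a4 and Gpt2 are highest at day 1 (2.54 and 1.86), and most enzymes lie between -0.72 and 0.

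The genes most like Glul over the 3 arrays, by the distance between levels centred on their own mean, were Mapk3, Slc39a8 and Emc9, at distances of 0.01, 0.02 and 0.03 on the log2 scale. Among 6044 named genes measured on all 3 arrays, 42 lay within 0.1 of Glul. Those most like Slc1a6 were Abcg3l1, Nfil3 and Inha, at 0.01 each, and 36 genes lay within 0.1. With 3 arrays such likeness is common and describes these arrays alone.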

How the data were processed

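RNA of rat vestibular nuclei was measured on 3 Agilent 1-colour arrays. Per the labels' protocols, 1 µg of total RNA was amplified and labelled with Cy3. Per the file headers, signals were extracted with Agilent Feature Extraction 10.7.3.1 on an array design annotated on rn4. The deposited processed intensity is linear, background-subtracted and not scaled between arrays. The authors' series table holds the same intensities, within 0.1% for 100.0% of the probes compared on 1 spot, so it is linear, uncentred and unscaled, and its column medians are 1596 for sham, 1544 for day 1 and 1688 for day 7. The deposited flags per spot (other columns) mark signal above background, saturation and outliers.

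Each array was scaled by its 75th percentile over 43379 non-control spots (5692, 5242 and 5676 units), outlier spots (163, 224 and 193) were left out, and spots of a probe were averaged as log2. Probes were named through the RefSeq accession in a GRCr8 table, which matched 10768 of 41012 probes. Some list genes are counted but not reported here by name. No coordinates are given because the builds differ. The brightest probe on average stood for a gene. Named were all members, list genes past 2-fold, further list genes chosen after their values were seen and, for the 2 members with the widest range, the 3 nearest genes. The spot error of a difference is its standard error, from the SD and the number of a probe's spots on each array compared. Scanner errors are the deposited error estimates, combined over the arrays compared. The members and lists were chosen with earlier results of these data known. Scripts were tested on simulated data. Alternatives used limma 3.58.1 in R 4.3.3 and Python 3.11.15. The number of arrays limits the precision.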

Additional observations from a re-analysis of the deposited data

Results flagged for a closer look

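Slc1a2 was marked because its values against sham have opposite signs at the 2 times, -0.24 at day 1 and 0.34 at day 7. With 1 array at each time, the difference was not tested. In groups of 1 array, no sample can be set against others of its group.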

How the results depend on the processing

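No paired analysis was possible because each group has 1 array and no test was run, and no replicate could be left out. No member passed 2-fold under any of 11 alternatives. At 1.5-fold, 1 of 7 members passed in each of the 3 comparisons, beside 30.0%, 36.8% and 28.2% of all genes. For the cycle list, brighter probes alone gave 2 of 14 genes past 2-fold for day 1 against sham (5 of 23 with the main settings). For day 7 against sham it was 1 of 13 (3 of 22), and between the days 1 of 14 (2 of 21). Brighter genes as a whole gave 8.72%, 11.5% and 9.57%. A 1.5-fold threshold gave 9 of 23, 9 of 22 and 4 of 21 genes, beside the same 30.0%, 36.8% and 28.2% of all genes. With no filter on dim probes it was 5 of 25 between the days, beside 17.9% of all genes. The other alternatives left these counts within 1.5 times. Fewer or more genes were tested under the filters, and the cause was not otherwise tested.

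The members' median ranged from -0.09 to 0.06 for day 1 against sham, from 0.17 to 0.35 for day 7 against sham and from -0.11 to 0.16 for day 7 against day 1, so it kept its sign over these alternatives only in the second. Without scaling, all genes had a median of -0.12 for day 1 against sham, and of 0.15 between the days. The background correction with normexp (offset 50) was changed after seeing the files, since they hold the median and not the mean spot signal. Whether values had moved was judged against the median difference between probes of a gene. Signal over background limits Slc17a7 and Slc17a8.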
